A study of Mus musculus with 6 samples.

Results

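The expressed Zfp genes of mouse oocytes, zinc finger protein genes named Zfp with a number, were compared between *Bnc1*tr/tr and wild-type (WT) germinal vesicle (GV) oocytes. Members were chosen by their symbol and by a mean level of at least 5 FPKM (fragments per kilobase of transcript, relative to all mapped fragments of a library) over all 6 libraries, less 1 gene not reported here. This gave 106 of the 350 Zfp-number genes and of the 17577 genes in the tables. The choice used the mean over both genotypes, so the levels themselves are a description, while the difference between the genotypes was tested. At the edge of the choice, *Zfp410* lay just inside with a mean of 5.08 FPKM and *Zfp935* just outside with 4.78 FPKM.

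Most Zfp proteins carry rows of C2H2 zinc fingers, small loops that hold a zinc ion between paired cysteines and histidines and read the bases of DNA. Many of those found in mammals also carry a KRAB box, a short domain that recruits the corepressor TRIM28, with which the histone methyltransferase SETDB1 and heterochromatin proteins silence retrotransposons and imprinted regions. Genes of the KRAB kind stand in clusters of recent duplicates, many of them particular to rodents, and oocytes store both transcripts and proteins of this machinery for the early embryo.

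The oocytes came from 12-week-old C57BL/6 J mice given pregnant mare serum gonadotropin, and each cDNA was made by a modified Smart-seq2 procedure that the methods describe for a single oocyte. In all, 3 *Bnc1*tr/tr and 3 WT libraries were compared. The *Bnc1*tr/tr animals were homozygous in all tissues for a frameshift in exon 4 of *Bnc1*, the gene of the zinc finger transcription factor basonuclin 1, so a change in their oocytes need not start in the oocyte. WT animals were *Bnc1*+/+, the methods state that littermates were compared, and both genotypes descend from heterozygous parents of 1 targeted line. Nothing in the labels says which animal each library came from, so p-values measure the spread between these samples.

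*Bnc1*, the mutated gene, was read at 9.04, 6.51 and 5.83 FPKM in mutant oocytes and at 13.17, 12.54 and 16.23 FPKM in WT oocytes, which matches the labels in direction (log2 fold change -0.89, limma with Benjamini-Hochberg adjusted p = 0.0090). FPKM totals ranged from 657550 to 724550 over the libraries. Oocyte markers summed to 8003 to 9255 FPKM in *Bnc1*tr/tr and 6657 to 10427 FPKM in WT libraries. Of the 11 tested 1 was higher, 1 lower and 9 not called. The called markers are named here after their values were seen. *Dazl* had 451.9, 416.2 and 447.3 FPKM in *Bnc1*tr/tr against 263.5, 234.7 and 237.0 FPKM in WT oocytes (log2 fold change 0.84, limma adjusted p = 0.0035). *Zp2* had 313.4, 422.9 and 424.0 against 783.8, 689.7 and 490.6 FPKM (-0.74, adjusted p = 0.032). Markers of other ovarian cells were also read. In *Bnc1*tr/tr against WT libraries they summed to 43.3 to 60.4 against 22.8 to 39.7 FPKM for the 9 listed of 12 granulosa markers, 6.12 to 8.53 against 1.87 to 2.30 FPKM for the 7 listed of 8 theca and stroma markers and, with overlap, 2.60 to 53.7 against 1.39 to 3.0 FPKM for 8 immune markers. More genes reached 1 FPKM in *Bnc1*tr/tr (10682 to 11035) than in WT libraries (9518 to 9748). In these lists 5 granulosa, 1 stroma and 2 immune genes had a mean of 1 FPKM or more. Of these 8, named here after their values were seen, 3 rose and 0 fell in *Bnc1*tr/tr oocytes: *Fshr*, the receptor of follicle-stimulating hormone, at 4.54, 5.83 and 5.37 against 0.31, 0.74 and 0 FPKM (limma adjusted p = 0.00011), *Kitl* at 3.10, 1.94 and 2.33 against 1.13, 1.12 and 1.18 FPKM (0.018) and the stroma gene *Dcn* at 6.46, 6.95 and 4.93 against 1.36, 1.48 and 2.02 FPKM (0.00051). Over all tested genes 24.1% were higher and 7.68% lower. The *Kitl* call was lost without *Bnc1*tr/tr replicate 1 or WT replicate 2 (adjusted p = 0.062 and 0.067). *Cyp19a1*, the aromatase of granulosa cells, had the highest level of its list, 27.49, 44.41 and 33.46 against 23.45, 28.98 and 17.41 FPKM. Its groups overlapped (limma adjusted p = 0.10). The granulosa gene *Inha* went the other way, at 0.18, 1.81 and 0.09 against 6.78, 3.45 and 0.04 FPKM. It was not called either (log2 fold change -1.11, adjusted p = 0.24). The macrophage gene *Lyz2* reached 47.97 FPKM in *Bnc1*tr/tr replicate 2. The granulosa gene *Foxl2* and the stroma gene *Col1a1* were at 0 to 0.03 FPKM. The part of these differences in the results below was not tested.

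All 106 Zfp genes were above 0 in every library, 105 were at 1 FPKM or more in all of them, and 83 reached 5 FPKM in all of them. The median of their means was 15.2 FPKM, below the 23.2 FPKM of all 6866 genes whose mean reached that limit. Means of 34 genes lay between 5 and 10 FPKM, of 57 between 10 and 50 and of 15 at 50 FPKM or more. The coefficient of variation between replicates had a median of 13.8% in *Bnc1*tr/tr and 15.5% in WT libraries.

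Across the expressed Zfp genes, more fell than rose in *Bnc1*tr/tr oocytes. Of the 106 genes, 44 passed the test (limma adjusted p under 0.05 and absolute log2 fold change over 0.5), of which 28 were lower and 16 higher. Among all 10560 tested genes the share called was 31.8%, with 7.68% lower and 24.1% higher, so that in the deposited values most Zfp calls were lower and most of all calls higher. For the tested genes whose mean reached 5 FPKM, as all members' means do, the shares were 29.2% called, 8.97% lower and 20.3% higher. The median log2 fold change was -0.07 over the members, 0.15 over all tested genes and 0.07 over those of at least 5 FPKM. The groups did not overlap in 58 of the 106 genes, against 46.8% of all tested genes and 45.9% of those of at least 5 FPKM, and in all 44 of those called.

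The split moved with the scaling between libraries. Upper-quartile scaling gave 13 higher and 34 lower Zfp genes, median-ratio scaling 10 and 36, and quantile normalization 9 and 38, and the 28 genes called lower in the deposited values were called lower in each. Over all tested genes these scalings moved the median log2 fold change from 0.15 to 0.02, -0.02 and -0.10. All tested genes had 2145 higher and 1231 lower calls under upper-quartile, 2034 and 1395 under median-ratio and 1637 and 1877 under quantile scaling. In the deposited values these were 2547 and 811. Under quantile normalization most of all calls were thus lower, as for the Zfp genes. Some members passed the level limit through 1 group alone, 11 through *Bnc1*tr/tr and 7 through WT oocytes, and the 88 with both group means at 5 FPKM or more held 9 higher and 24 lower genes. The count also moved with single libraries, since 29 genes were called without WT replicate 2, with 10 higher, and 30 without *Bnc1*tr/tr replicate 3, also with 10 higher.

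**Figure D1:**
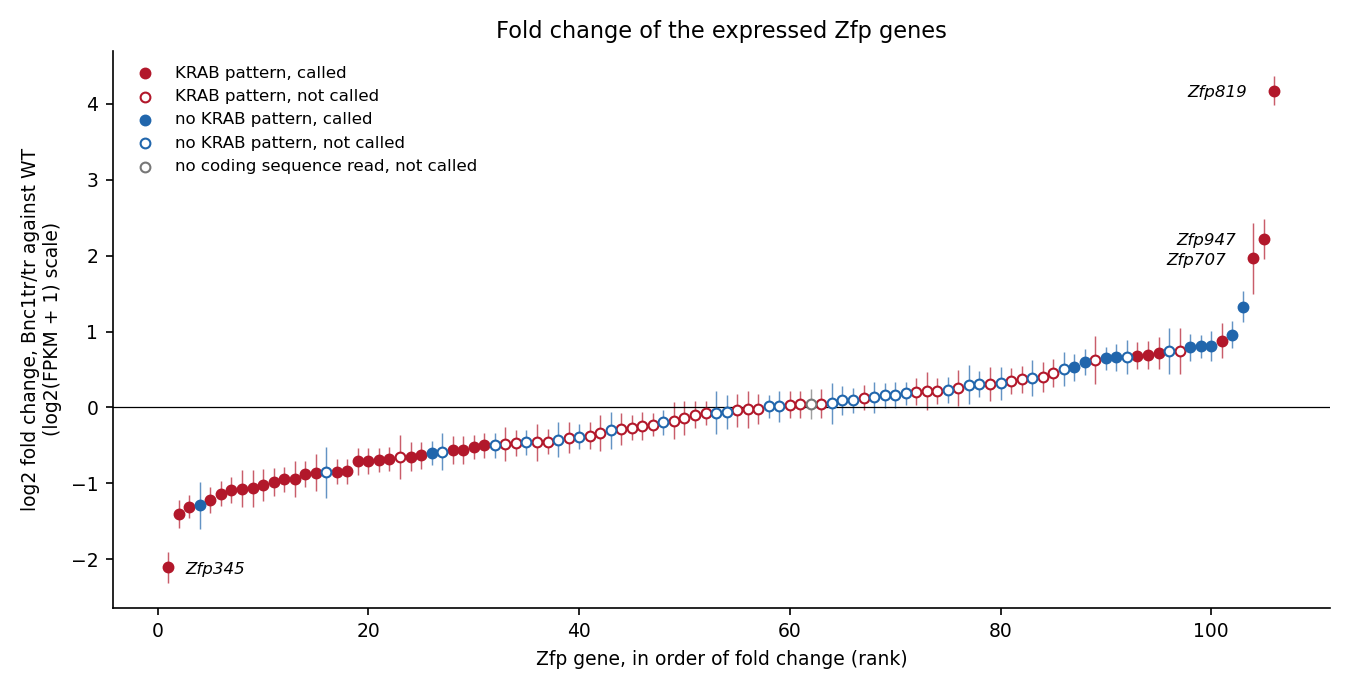
Each of the 106 Zfp genes is drawn in order of its log2 fold change (vertical axis, log2(FPKM + 1) scale) with its standard error, filled where called. The lowered genes at the left are KRAB genes (red) except for 2, and *Zfp819* stands alone at 4.17 at the upper right.

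In the deposited values 26 of the 28 lowered genes were KRAB genes. A KRAB box pattern, 9 or more of 13 key residues of the box, was sought in the translation of the longest coding sequence of each gene. It was found in 67 members, not found in 38 and not read in 1 without a coding sequence. A box encoded only by another transcript of a gene would be missed. Of the 67 KRAB members 26 were lower and 7 higher, with a median log2 fold change of -0.34. The shift was not seen at all levels. The 22 KRAB members with a mean of 5 to under 10 FPKM had 5 lower and 4 higher, with a median of 0.13. The 34 of 10 to under 50 FPKM had 17 lower and 2 higher (median -0.49). The 11 of 50 FPKM or more had 4 lower and 1 higher (median -0.45). Of the 38 members without the pattern 2 were lower and 9 higher, with a median of 0.16. Medians were 0.15 over all tested genes and 0.07 over those of at least 5 FPKM. The same separation of medians stood under median-ratio scaling (-0.51 and -0.02, all genes -0.02) and under quantile normalization (-0.56 and -0.03, all genes -0.10). The calls of the members without the pattern did not keep their split, with 6 higher and 6 lower under upper-quartile, 5 and 6 under median-ratio and 5 and 7 under quantile scaling. Counts by class without overlap were 41 of 67 and 17 of 38, against 45.9% of tested genes of at least 5 FPKM. The second count was near that share.

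Summed over the class, KRAB members had 1725, 1777 and 1669 FPKM in *Bnc1*tr/tr oocytes against 2249, 2084 and 2357 FPKM in WT, 1723 ± 54.0 against 2230 ± 137 (SD, n = 3 each). The other members summed to 1535, 1457 and 1483 FPKM in *Bnc1*tr/tr oocytes against 1343, 1255 and 1136 FPKM in WT, 1491 ± 39.8 against 1244 ± 104. In the deposited values the first sum was lower and the second higher in *Bnc1*tr/tr oocytes, without overlap in either. *Zfp655* alone gave 496.7 and 330.4 FPKM of the second.

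**Figure D2:**
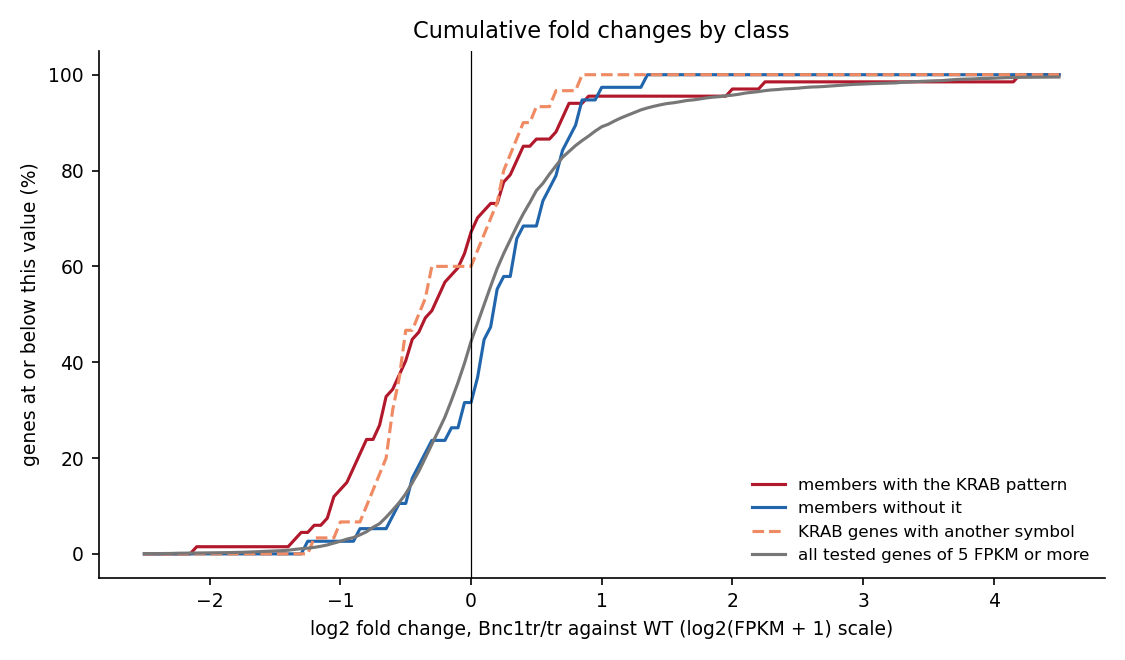
The lines give the percentage of genes (vertical axis) at or below each log2 fold change (horizontal axis, log2(FPKM + 1) scale). They show KRAB members and other members and, at 5 FPKM or more, KRAB genes with another symbol and all tested genes. Between -1 and 0.5 both KRAB lines lie above the grey line, and members without the pattern lie close to it or to its right below a fold change of 0.5.

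The windows upstream of 1 raised and 3 lowered KRAB genes are shown for the range of their CpG content, which is compared over all members below. Each stretch is the part from 250 to 51 bases before the transcript start on which the RefSeq window of the gene is set in GRCm38.p6, which in *Zfp819* and *Zfp946* lies inside the outer limits of the gene. All 4 stretches end upstream of every start annotated for the gene. They are printed in the direction of the gene, with each CG in capitals.
*Zfp819* (chr7:43606919-43607118, plus strand): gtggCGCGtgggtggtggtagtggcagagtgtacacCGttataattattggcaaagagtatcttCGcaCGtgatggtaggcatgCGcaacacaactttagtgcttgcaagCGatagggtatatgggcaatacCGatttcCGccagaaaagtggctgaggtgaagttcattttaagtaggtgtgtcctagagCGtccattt
*Zfp946* (chr17:22423952-22424151, plus strand): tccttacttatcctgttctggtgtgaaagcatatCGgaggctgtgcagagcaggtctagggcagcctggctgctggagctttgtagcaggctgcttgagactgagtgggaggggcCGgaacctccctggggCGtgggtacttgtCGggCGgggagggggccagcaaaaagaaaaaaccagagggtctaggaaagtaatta
*Zfp345* (chr2:150485114-150485313, minus strand): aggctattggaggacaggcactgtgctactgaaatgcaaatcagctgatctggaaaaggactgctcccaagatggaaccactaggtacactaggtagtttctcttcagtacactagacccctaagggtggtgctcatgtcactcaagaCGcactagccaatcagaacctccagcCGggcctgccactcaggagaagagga
*Zfp980* (chr4:145670447-145670646, plus strand): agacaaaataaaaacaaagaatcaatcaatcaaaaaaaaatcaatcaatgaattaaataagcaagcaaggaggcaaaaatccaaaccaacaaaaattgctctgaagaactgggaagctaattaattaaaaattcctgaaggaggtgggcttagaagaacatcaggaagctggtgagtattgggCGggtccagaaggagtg
*Zfp819*, the gene that rose most, holds 10 CG in these 200 bases. *Zfp946* holds 5, *Zfp345* 2 and *Zfp980* 1, and these 3 genes fell. The examples do not stand for all genes of a direction, since 3 of the 6 raised KRAB genes with a window had a CpG ratio, as defined below, under 0.6.

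The 6 largest increases were all in genes with a WT mean under 5 FPKM, which reached the level limit through the *Bnc1*tr/tr libraries, and among members with both means at 5 FPKM or more the raised KRAB genes numbered 2 rather than 7. The largest increase belonged to *Zfp819* (NCBI Gene 74400, chromosome 7, 43607135 to 43618279), a KRAB zinc finger gene known from mouse embryonic stem cells, where its protein binds TRIM28. Its level was 67.68, 53.29 and 58.58 FPKM in *Bnc1*tr/tr oocytes, while WT oocytes had 2.16, 1.91 and 3.10 FPKM. Each mutant library was far above each WT library, a 25.04-fold ratio of the means and a log2 fold change of 4.17 ± 0.19 (SE, limma adjusted p = 2.3e-06). Its WT mean of 2.39 FPKM was below the level limit of the members, and its *Bnc1*tr/tr mean of 59.9 FPKM was above their median.

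*Zfp947* and *Zfp707*, also KRAB genes, rose next. *Zfp947* had 15.47, 24.08 and 23.73 FPKM in *Bnc1*tr/tr oocytes against 2.69, 3.09 and 5.67 FPKM in WT (log2 fold change 2.22 ± 0.27 SE, limma adjusted p = 0.00032). *Zfp707* had 14.64, 9.39 and 6.13 FPKM against 4.11, 1.96 and 0.29 FPKM (1.96 ± 0.47, adjusted p = 0.012). The *Zfp707* groups came near each other and its WT libraries were the most variable among members, with a coefficient of variation of 90.3%. *Zfp707* lost its call when genes of any level were tested (adjusted p = 0.058).

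The other large increases were in *Zfp644*, *Zfp428* and *Zfp931*. *Zfp644*, whose protein works with the histone methyltransferases G9a and GLP, had 8.56, 9.05 and 10.64 FPKM in *Bnc1*tr/tr oocytes against 2.95, 4.34 and 2.37 FPKM in WT (log2 fold change 1.33 ± 0.21 SE, limma adjusted p = 0.0014). *Zfp428* had 10.73, 8.82 and 8.94 against 5.30, 4.18 and 3.80 FPKM (0.96 ± 0.18, adjusted p = 0.0035). Both lacked the KRAB pattern, and their groups were separated by clear gaps. *Zfp931*, a KRAB gene, had 4.57, 7.68 and 8.78 against 2.75, 3.73 and 3.31 FPKM (0.88 ± 0.23, adjusted p = 0.019), and its call was lost under quantile normalization and without *Bnc1*tr/tr replicate 2, *Bnc1*tr/tr replicate 3 or WT replicate 1 (adjusted p = 0.070, 0.070 and 0.056 in turn for the libraries).

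Among lowered genes *Zfp345* (NCBI Gene 545471, chromosome 2, 150470991 to 150485063) changed most. This KRAB gene with 14 fingers had 21.32, 17.96 and 14.03 FPKM in *Bnc1*tr/tr oocytes against 70.60, 75.21 and 92.08 FPKM in WT. The WT mean was 4.46-fold higher and the log2 fold change was -2.11 ± 0.20 (SE, limma adjusted p = 8.5e-05). Of the 31-base words of its transcripts, 50.8% also occurred in transcripts of other genes, so that part of its reads could come from, or be credited to, those genes.

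*Zfp946*, *Zfp58* and *Zfp51*, KRAB genes as well, followed. *Zfp946* had 9.14, 10.35 and 11.44 FPKM in *Bnc1*tr/tr oocytes against 27.67, 24.54 and 34.88 FPKM in WT (log2 fold change -1.40 ± 0.19 SE, limma adjusted p = 0.00058). *Zfp58* had 34.03, 37.86 and 34.20 against 89.27, 90.40 and 86.68 FPKM (-1.31 ± 0.15, adjusted p = 0.00028). *Zfp51* had 28.34, 22.89 and 26.20 against 55.97, 57.94 and 70.26 FPKM (-1.22 ± 0.17, adjusted p = 0.00086). In all 3 genes the groups were well apart. Shared words made up 7.27% in *Zfp946*, 48.0% in *Zfp58* and 9.82% in *Zfp51*.

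*Zfp473* and *Zfp980* completed the 6 largest decreases. *Zfp473*, whose human counterpart takes part in processing of histone pre-mRNA, had no KRAB pattern match in the sequence read, with 2.77, 2.65 and 2.08 FPKM in *Bnc1*tr/tr oocytes against 11.18, 9.23 and 3.99 FPKM in WT (log2 fold change -1.29 ± 0.31 SE, limma adjusted p = 0.012). WT replicate 3 was much lower than the other WT libraries. *Zfp473* reached the level limit through the WT libraries alone, with a mean of 8.13 FPKM in WT and 2.50 FPKM in *Bnc1*tr/tr oocytes. *Zfp980* had 23.76, 24.48 and 21.54 against 54.87, 45.29 and 57.42 FPKM (-1.14 ± 0.17, adjusted p = 0.0011), with 82.8% of its words shared. *Zfp653*, the only other lowered member without the pattern, is named for that reason after its values were seen, with 26.56, 29 and 22.70 against 41.69, 39.21 and 38.81 FPKM (-0.60 ± 0.16, adjusted p = 0.022). Its call was lost without *Bnc1*tr/tr replicate 1 or 3 or WT replicate 1 or 2 (adjusted p = 0.053, 0.080, 0.062 and 0.073).

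The 18 lowered genes named nowhere in the text had log2 fold changes from -1.09 to -0.50, and the 7 such raised genes from 0.53 to 0.81. The 62 genes that were not called ranged from -0.85 to 0.74, with a median of 0.03. Standard errors over the members ran from 0.15 to 0.47.

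**Figure D3:**
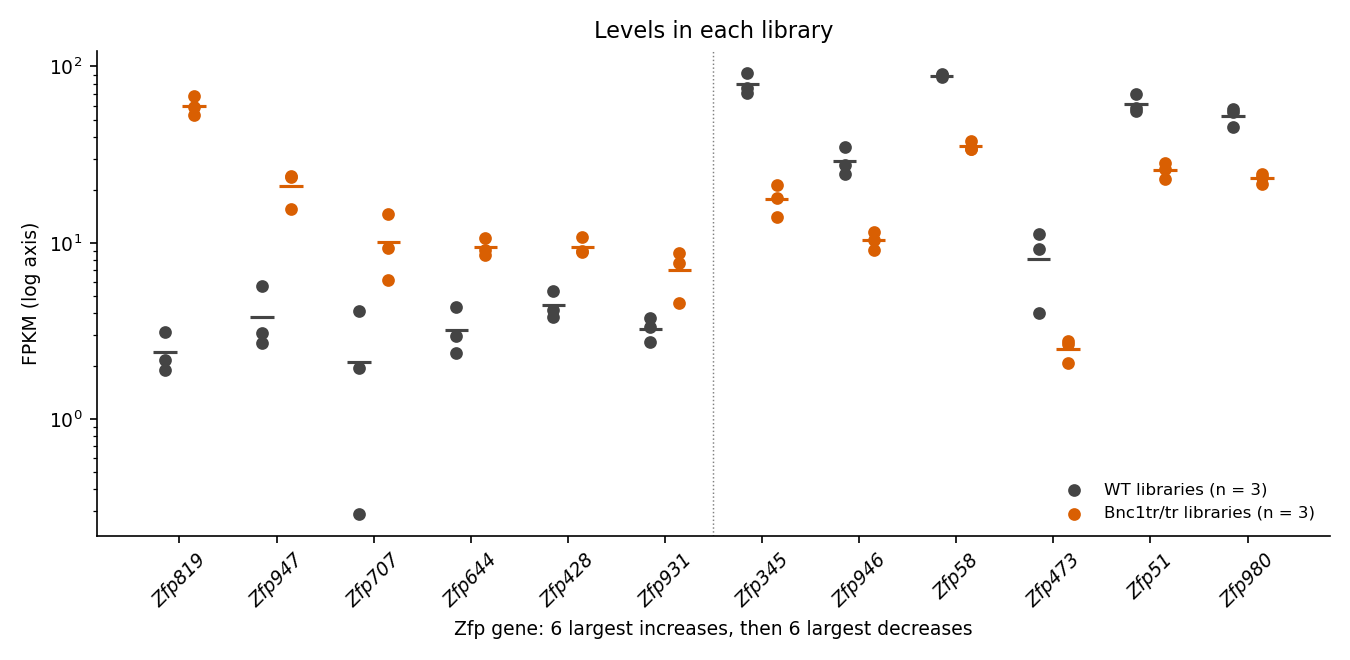
Points are the FPKM of single libraries on a log axis, with bars at the mean of the 3 WT (grey) and 3 *Bnc1*tr/tr libraries (orange), for the 6 largest increases left of the dotted line and the 6 largest decreases right of it. In all 12 genes the colours do not overlap, and *Zfp819* shows the widest gap.

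Many KRAB genes are close copies of each other, and a tool that assigns reads among copies can move counts between them. The authors' assignment of such reads was not tested, so calls in these genes are uncertain as to which copy changed. Of the 67 KRAB members 29 shared 10% or more of their 31-base words with other genes, and 17 of these were lower and 3 higher, with a median log2 fold change of -0.56. The 13 members that shared at least 50% all had fold changes below 0, with 11 lower. In the 38 KRAB members under 10% the lower calls were fewer but still more than the higher ones, 9 lower and 4 higher with a median of -0.09, while the 36 other members under 10% had 2 lower and 9 higher with a median of 0.17. Lowered KRAB members under 10% had fold changes from -1.40 to -0.56.

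An example of such copies is the neighbouring pair *Zfp97* and *Zfp960* on chromosome 17, chosen after their values were seen. *Zfp97* shared 84.9% of its words with *Zfp960*, and *Zfp960* 86.8% of its words with *Zfp97*. *Zfp97* had 25.22, 22.53 and 22.66 FPKM in *Bnc1*tr/tr oocytes against 45.11, 38.35 and 48.93 FPKM in WT (log2 fold change -0.88, limma adjusted p = 0.0040). *Zfp960* had 35.12, 36.66 and 48.68 against 56.20, 54.91 and 66.99 FPKM (-0.56, adjusted p = 0.047). Both copies were lower in all *Bnc1*tr/tr than in all WT libraries. The *Zfp960* call was lost without any 1 library except *Bnc1*tr/tr replicate 3 (adjusted p from 0.077 to 0.14).

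Lowered genes also had start-site windows poor in CpG. Windows of 300 bases, 250 before and 50 after the RefSeq start, were found for 91 members, and the CpG ratio is the number of CG divided by that expected from the C and G of the window. The median ratio was 0.40 in lowered, 0.71 in uncalled and 0.75 in raised members, against 0.78 over the 5613 tested genes of at least 5 FPKM with a window. Of the 35 KRAB members with a ratio under 0.6, 19 were lower and 3 higher, and of the 25 at 0.6 or more, 4 were lower and 3 higher. Among all tested genes of at least 5 FPKM 11.9% were lower under 0.6 and 7.91% at 0.6 or more. The shares called higher were 25.9% under 0.6 and 18.4% at 0.6 or more. Of the 6 members without the KRAB pattern and with a ratio under 0.6, 0 were lower and 3 higher. At 0.6 or more, 2 of 24 such members were lower and 6 higher. The part of CpG content in the calls was not tested.

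CpG-poor windows and shared sequence occurred in the same genes. Of the KRAB members under 10% shared words, 5 of 15 with a ratio under 0.6 were lower and 0 higher, and 2 of 18 with a higher ratio were lower and 3 higher. With 10% or more shared words, 14 of 20 under 0.6 and 2 of 7 above it were lower. The windows printed above show both ends of this range, with ratios over the whole window of 1.05 for *Zfp819*, 0.53 for *Zfp946*, 0.20 for *Zfp345* and 0.25 for *Zfp980*.

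**Figure D4:**
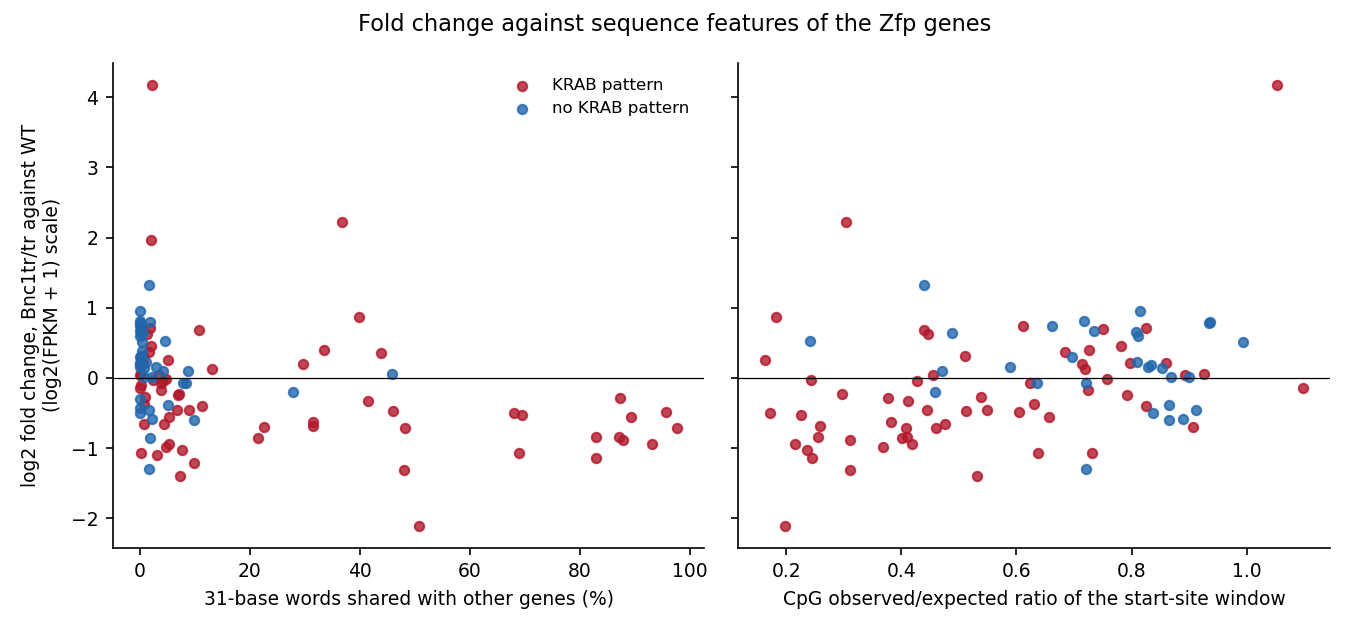
Log2 fold change (vertical axis, log2(FPKM + 1) scale) is drawn against the percentage of 31-base words shared with other genes (left) and the CpG ratio of the start-site window (right), for KRAB members (red) and other members (blue). All 13 genes beyond 50% shared words lie below 0, and the lowest fold changes on the right fall mostly under a CpG ratio of 0.6.

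Short promoter motifs were searched on both strands of the same windows. The CCAAT box, spelled CCAAT, occurred in 68.0% of the windows of lowered, 50.98% of uncalled and 53.3% of raised members, and in 41.6% of those of tested genes of at least 5 FPKM. The core of the GC box, GGGCGG, occurred in 36.0%, 56.9% and 33.3% of these member windows and in 62.2% of the genes of at least 5 FPKM. Both motifs also differed by class. CCAAT occurred in 61.7% of KRAB and 43.3% of other member windows, and GGGCGG in 38.3% and 63.3%. Within the KRAB class CCAAT was in 17 of 23 lowered, 15 of 31 uncalled and 5 of 6 raised windows. GGGCGG was in 8, 14 and 1 of them. The TATA box TATAAA was found in 2 of the 91 windows and the E-box CACGTG in 11. Over the windows of all 27025 genes the shares were 37.9% for CCAAT, 35.9% for GGGCGG, 14.2% for TATAAA and 7.24% for CACGTG. A match is a description of the letters and not a site.

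Finger number differed along the same line. The members' coding sequences held 0 to 23 C2H2 finger patterns with a median of 10, and 49 of the 67 KRAB members but 5 of the 38 others held 10 or more. Medians were 13 fingers in lowered, 9 in uncalled and 7.5 in raised genes. Within the KRAB class, 23 of the 49 members with 10 or more fingers were lower and 3 higher, and of the 18 with fewer 3 were lower and 4 higher. Shared words had medians of 8.86% and 3.90% in these 2 sets.

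By position, 19 of the 28 lowered genes stood in clusters. In all, 10 stretches held 3 or more members with no gap over 500 kb between neighbouring Zfp genes, and of their 40 members 19 were lower and 5 higher. Of the 66 members elsewhere 9 were lower and 11 higher. Clusters hold mostly KRAB genes, and within that class 19 of 37 clustered and 7 of 30 other members were lower. Shared words had a median of 22.6% in clustered and 2.81% in other KRAB members.

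Members of a cluster had the same sign in some clusters and not in others. In the chromosome 10 cluster (GRCm38.p6, 81704747 to 82241280) 3 of 4 members were lower and all 4 had fold changes below 0. In the chromosome 4 cluster at 147132093 to 147849126 3 of 4 were lower and the fourth was at 0.21, and in that at 145510759 to 146539395 2 of 3 were lower and all 3 below 0. The chromosome 17 cluster from 21008941 to 23599755 held 9 members, with *Zfp946*, *Zfp51* and 2 others lower, *Zfp947* and 1 other higher and 3 not called. *Zfp947* and *Zfp946*, among the largest changes in either direction, thus lay in the same cluster. In the second chromosome 17 cluster, 32765496 to 33631716, 0 of 4 members were called. The chromosome 2 cluster of *Zfp345* had 2 of 3 members lower and all 3 below 0, and that of *Zfp931* had 2 lower beside the raised *Zfp931*.

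**Figure D5:**
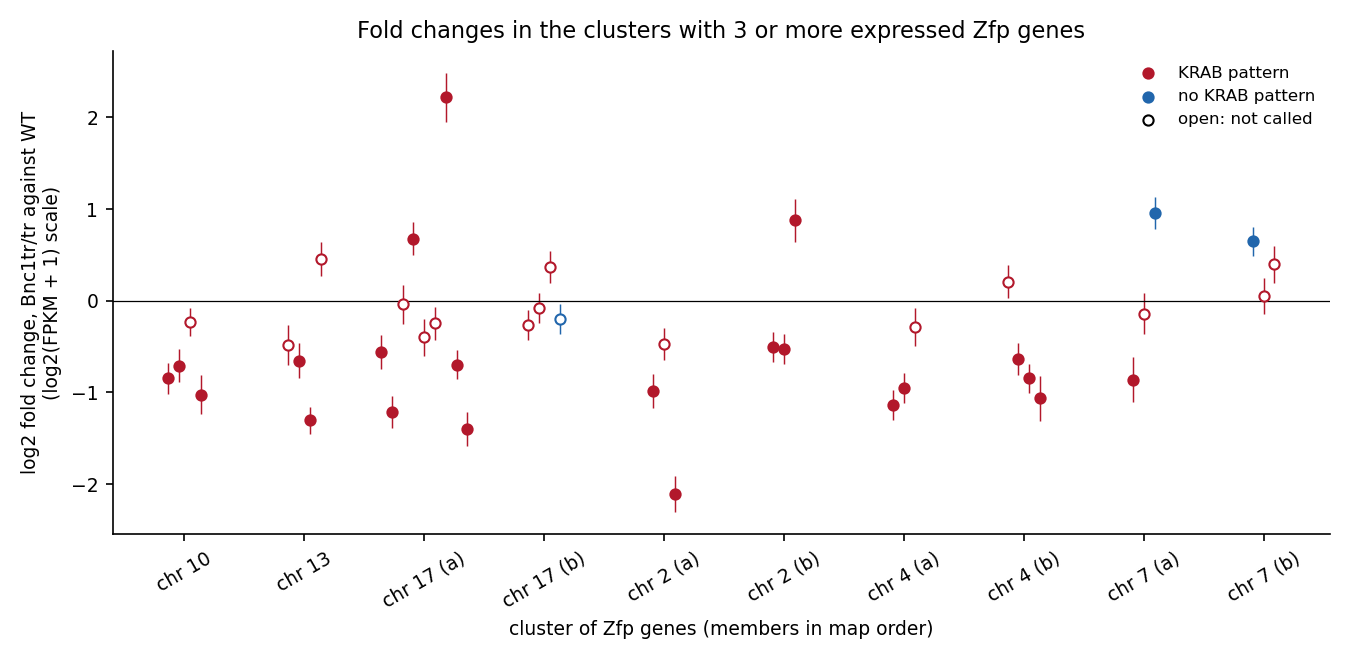
Members of each cluster are drawn in map order with their log2 fold change and standard error (vertical axis, log2(FPKM + 1) scale), filled where called, in red for KRAB genes and blue for others. Filled points below 0 appear in 8 of the 10 clusters, and the first chromosome 17 cluster also holds *Zfp947* at 2.22.

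The most abundant members were *Zfp655*, *Zfp932* and *Zfp706*. *Zfp655*, without the KRAB pattern, had 489.3, 484.7 and 516.0 FPKM in *Bnc1*tr/tr oocytes against 367.8, 346.3 and 277.0 FPKM in WT (log2 fold change 0.60 ± 0.17 SE, limma adjusted p = 0.027). Its groups did not overlap, but the call was lost under upper-quartile and median-ratio scaling (0.46 and 0.41) and on leaving out any library except WT replicate 1 (fold changes from 0.48 to 0.64). *Zfp706*, a short protein with 1 finger known as a brake on *Klf4* in embryonic stem cells, had 144.8, 148.0 and 178.3 against 136.8, 144.8 and 158.7 FPKM (0.09, adjusted p = 0.71), with overlapping groups.

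KRAB silencing proteins with known targets form the first of 4 role lists. *Zfp932*, which silences endogenous retroviruses, had 135.5, 157.7 and 145.3 FPKM in *Bnc1*tr/tr oocytes against 220.5, 214.4 and 289.5 FPKM in WT (log2 fold change -0.71 ± 0.18 SE, limma adjusted p = 0.016). It was the only called gene of the 4 members on this list, against 31.8% of all tested genes called. *Zfp932* shared 44.2% of its words with its paralogue Gm15446, and without *Bnc1*tr/tr replicate 1 its adjusted p was 0.055. *Zfp809*, which recognises the primer binding site of retroviruses, had 10, 8.81 and 5.44 against 6.22, 4.98 and 2.45 FPKM (0.74, adjusted p = 0.095). *Zfp708*, which binds a class of retrotransposon repeats, had 22.74, 17.08 and 27.54 against 34.27, 24.91 and 35.52 FPKM (-0.48, adjusted p = 0.13) with 95.4% of its words in Gm28557. *Zfp69* had 14.52, 9.70 and 7.78 against 8.43, 11.37 and 7.04 FPKM (0.21, adjusted p = 0.56). The groups of these last 3 genes overlapped, and *Zfp809* was called without WT replicate 1 (adjusted p = 0.049).

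Of the list of developmental and chromatin factors 6 were members, 2 of them raised and 0 lowered. Over all 14 tested genes of that list 7 rose and 0 fell, against 24.1% and 7.68% of all tested genes, with a median log2 fold change of 0.70. *Zfp148*, a regulator that binds GC-rich promoters, had 24.56, 23.81 and 24.86 FPKM in *Bnc1*tr/tr oocytes against 13.42, 12.67 and 14.65 FPKM in WT (0.80 ± 0.15 SE, limma adjusted p = 0.0042), and *Zfp644* was given above. *Zfp143*, a promoter factor that takes part in chromatin loops, had 20.62, 13.68 and 18.58 against 13.95, 8.78 and 9.71 FPKM (0.66, adjusted p = 0.050, just over the threshold), and it was called without *Bnc1*tr/tr replicate 2 or WT replicate 1 (adjusted p = 0.039 and 0.024). *Zfp131* (0.16, adjusted p = 0.52) and *Zfp592* (0.19, adjusted p = 0.39) did not pass.

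*Zfp410*, the sixth gene of that list, is known as an activator of *Chd4*. It had 4.14, 3.64 and 1.91 FPKM in *Bnc1*tr/tr oocytes against 10.71, 6.34 and 3.77 FPKM in WT (log2 fold change -0.85 ± 0.34 SE, limma adjusted p = 0.085), with overlapping groups. It was called after upper-quartile, median-ratio and quantile scaling (adjusted p = 0.041, 0.035 and 0.012) and without WT replicate 3 (adjusted p = 0.017). *Chd4* itself had 9.21, 6.49 and 8.12 against 5.85, 4.81 and 3.68 FPKM (0.63, adjusted p = 0.041).

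Zinc fingers that act on RNA or ribosomes had 4 members, of which 1 rose and 0 fell. Over all 6 tested genes of that list 1 rose and 0 fell, against 24.1% and 7.68% of all tested genes. The count of raised members was near that share. *Zfp106*, an RNA-binding protein needed by motor neurons, had 8.63, 7.67 and 10.37 FPKM in *Bnc1*tr/tr oocytes against 4.52, 5.25 and 5.95 FPKM in WT (log2 fold change 0.66 ± 0.18 SE, limma adjusted p = 0.021). Its call was lost under the 3 scalings (adjusted p = 0.061, 0.076 and 0.23) and without *Bnc1*tr/tr replicate 1 or 3 or WT replicate 1 or 2 (0.052, 0.077, 0.067 and 0.070). *Zfp638*, which silences unintegrated retroviral DNA, was at 0.23 (adjusted p = 0.34), the ribosome assembly factor *Zfp593* at -0.30 (0.38) and the nucleolar *Zfp330* at -0.07 (0.86).

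Zinc fingers of chromosome and genome maintenance had 3 members, of which 1 had an adjusted p under 0.05 with a change under the fold threshold. *Zfp830*, needed for genome stability in early embryos, had 17.52, 15.94 and 20.76 FPKM in *Bnc1*tr/tr oocytes against 26.46, 26.23 and 24.69 FPKM in WT. The groups did not overlap (log2 fold change -0.4975, adjusted p = 0.047), but the change stayed just under the threshold of 0.5 on the deposited scale and passed it after upper-quartile, median-ratio and quantile scaling (-0.63, -0.68 and -0.70) and without *Bnc1*tr/tr replicate 3 (-0.60). Leaving out any other library gave adjusted p from 0.050 to 0.15, and a pseudocount of 0.1 gave 0.061. *Zfp207*, a spindle and kinetochore protein, was at 0.14 (adjusted p = 0.66) and *Zfp451*, a SUMO ligase, at 0.01 (0.96).

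Corepressor genes encode the partners of KRAB proteins. Of the 15 tested 2 rose and 0 fell, against 24.1% and 7.68% of all tested genes, with a median log2 fold change of 0.27. *Cbx5*, encoding the heterochromatin protein HP1 alpha, had 58.28, 58.23 and 61.61 FPKM in *Bnc1*tr/tr oocytes against 32.77, 33.71 and 33.94 FPKM in WT (0.81 ± 0.15 SE, limma adjusted p = 0.0035). *Chd4*, the remodeller of the NuRD complex, was the other, and its call was lost under all 3 scalings (adjusted p = 0.059, 0.076 and 0.24) and without *Bnc1*tr/tr replicate 1 or 3 or WT replicate 2 or 3 (0.13, 0.11, 0.11 and 0.084). Another 2 genes are named for their central role, after their values were seen. *Trim28* had 23.70, 14.74 and 17.48 against 15.80, 13.56 and 18.89 FPKM (0.19, adjusted p = 0.54, but -0.06 after quantile normalization) and *Setdb1* had 31.83, 33.17 and 33.27 against 23.57, 23.10 and 24.40 FPKM (0.45, adjusted p = 0.047), under the fold threshold.

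Genes outside the choice of members showed where the difference by class extended. Among the 112 Zfp genes with a mean of 1 to under 5 FPKM, the 67 with the KRAB pattern had 10 lower and 5 higher. Their median log2 fold change was -0.08. The 45 without it had 1 lower and 13 higher, with a median of 0.32. KRAB genes with other symbols whose mean reached 5 FPKM numbered 30, with 11 lower, 2 higher and a median of -0.41. All 51 tested KRAB genes with other symbols, at 1 FPKM or more, had 12 lower and 5 higher, with a median of -0.12. Over all 185 tested KRAB genes 48 were lower and 17 higher, with a median of -0.16. In the other 2 zinc finger families read, calls were 1 lower and 11 higher of 26 Zbtb genes (median 0.55), which carry a BTB domain, and 1 lower and 6 higher of 18 Zscan and Zkscan genes (median 0.37), which carry a SCAN domain. These families were taken by symbol and not split by the KRAB pattern, so they can share genes with the KRAB counts. Over all tested genes 7.68% were lower and 24.1% higher in the deposited values, so most of all calls were higher there. Under quantile normalization 1877 of all tested genes were lower and 1637 higher.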

How the data were processed

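RNA of 6 libraries, 3 *Bnc1*tr/tr and 3 WT, was measured by Smart-seq2. The authors deposited FPKM per gene and library. Their processing notes name HISAT2 2.0.4, Bowtie2 2.2.5, RSEM 1.2.12 and GRCm38.p6, with no order of use. Read depth was not estimated here, the amplified cDNA carried no molecular identifiers, so reads are not single molecules, and strand was not stated, so overlapping genes cannot be told apart.

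The genotype contrast was fitted on log2(FPKM + 1) values by limma 3.58.1 (R 4.3.3). This scale understates changes of low genes. It covered the 10560 genes whose mean reached 1 FPKM. Calls needed a log2 fold change beyond 0.5 in size together with a Benjamini-Hochberg adjusted p under 0.05 over all of them. The fit was tested on simulated data. Of the symbols, 25 that had become dates were restored through the gene ID.

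KRAB patterns, finger patterns (2 cysteines 2 to 4 residues apart, 12 residues, 2 histidines 3 to 5 apart) and shared 31-base words came from GENCODE M21 sequences rather than RefSeq proteins, and windows and positions from RefSeq GRCm38.p6. The KRAB match counts fell at 7 or fewer or at 9 or more of 13 residues in the tested genes.

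Named genes were the 6 largest changes in each direction among called members, the 3 most abundant, the members of 4 role lists, the genes at the level limit, *Bnc1* and called corepressors. The members and lists were chosen with earlier results of these data known. Alternatives changed the pseudocount, filter, scaling, variance model, fold threshold and replicates. The limit on shared words, the class counts and the choice by both group means were chosen after seeing the data. Figures were drawn with matplotlib 3.10.9.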

Additional observations from a re-analysis of the deposited data

How the results depend on the processing

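Of 612 values of 44 named genes, *Inha*, *Dazl* and *Zp2* left out, under the alternatives, 529 kept direction and side of the threshold. Of the rest 43 lost and 20 gained a call and 20 changed sign, all 20 in genes that were not called. With a fold threshold of 1, 14 Zfp genes were called, 4 higher and 10 lower (KRAB 3 and 9, others 1 and 1). Members under 10% shared words gave 24 calls, 11 lower (KRAB 4 higher and 9 lower), and members with both means at 5 FPKM gave 9 higher (KRAB 2) and 1 lower gene without the pattern. Median-ratio scaling gave 10 higher (5 without the pattern) and quantile normalization 9 (4 KRAB, 5 others), while lower genes without the pattern numbered 6 under upper-quartile, 6 under median-ratio and 7 under quantile scaling. Corepressor calls were 1 with a pseudocount of 0.1, without a filter and under upper-quartile and median-ratio scaling. Leaving out 1 library gave 29 to 42 Zfp calls, 10 to 18 higher and 19 to 28 lower, KRAB 4 to 9 and 18 to 25, others 5 to 9 and 1 to 3, and 1 to 3 corepressors. Sign changes after upper-quartile, median-ratio and quantile scaling in turn were *Zfp706* -0.0465 and -0.0913 (first 2), *Zfp207* -0.0021 and -0.0463 (first 2), *Zfp451* -0.119, -0.161 and -0.236, *Zfp131* -0.0217 and -0.0250 (last 2), and under quantile normalization *Zfp638* -0.0268, *Zfp592* -0.0868, *Zfp69* -0.0773 and *Trim28* -0.0589. Leaving out 1 library spread *Zfp706* from -0.000253 to 0.151, *Zfp330* from -0.270 to 0.130, *Zfp207* from -0.0275 to 0.261, *Zfp451* from -0.0353 to 0.0508 and *Zfp69* from -0.0142 to 0.397. The cause was not tested.

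Same-numbered libraries correlated at 0.28, -0.03 and 0.12 in their deviations from the group means, so the numbers were not taken as a pairing. With the replicate number as a block 51 Zfp genes were called, 20 higher and 31 lower (KRAB 9 and 27, others 11 and 4), with 3 corepressors, and *Zfp410*, *Zfp143*, *Zfp809*, *Cyp19a1* and *Lyz2* gained a call (limma adjusted p = 0.0084, 0.018, 0.011, 0.047 and 0.032).

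Depth was not estimated, so counting error of low genes is not given and the number of libraries limits the precision. In genes with shared words the copy that changed is uncertain.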
